A study of Homo sapiens with 2 samples.

Results

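The genes described here are long intergenic noncoding RNA genes whose symbol is LINC followed by digits, a placeholder name given to noncoding genes that have no functional name. Both count tables held 874 such symbols among 24462 gene symbols. The members were chosen by their measured counts, 20 or more in at least 1 library, which left 95, out of 12644 genes of any kind that met the same minimum. The RT-R-MDA-MB-231 cells are a radiotherapy-resistant line raised from MDA-MB-231 with X-rays given in 2 Gy fractions to 50 Gy in all, and MDA-MB-231 is the untreated parental line of triple negative breast cancer. Both lines grew in the same medium with 10% serum, and each was represented by 1 library of total RNA made with a Lexogen QuantSeq kit, a line of kits that reads the 3' ends of transcripts. Nothing in the labels says whether the resistant line is 1 clone or a pool. A single library per line allows no replicate check and no p-value for any difference. The minimum that chose the members used the same counts that are compared here, so the values below describe these libraries and test nothing.

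Long noncoding RNAs are transcribed and usually spliced and polyadenylated like messenger RNAs but are not known to encode a long protein. Some work at the site where they are made on genes nearby, others act as scaffolds or as decoys for proteins and microRNAs, and many are expressed at low level and in few tissues. A placeholder gene can later receive a functional name or prove to encode a small protein.

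The RT-R library held 10014804 counts and the parental library 9255008 counts. All LINC symbols together took 0.221% of the RT-R counts (exact binomial 95% interval 0.218 to 0.224%) and 0.219% of the parental counts (0.216 to 0.222%). Intervals here cover counting error only, and reads without molecular identifiers are not independent molecules. Of the cell type markers, VIM, CD44, AXL, KRT8 and KRT18 had 578 to 9663 counts in the RT-R library and 590 to 6995 in the parental library. The estrogen receptor gene ESR1 had 1 RT-R count and 0 parental counts, and the progesterone receptor gene PGR had none in either. ERBB2 had 174 RT-R and 230 parental counts, and CDH1, the epithelial cadherin, 68 and 32. The blood cell genes PTPRC and CD3E had no count, and the endothelial gene CDH5 had 1 RT-R count. PECAM1, also an endothelial marker, had 50 RT-R and 223 parental counts, the liver gene ALB 332 and 529, and the fibroblast gene COL1A1 76 and 59. Whether these last 3 genes have any part in the differences below was not tested.

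Of the 874 LINC symbols, 343 had a count in the RT-R library and 281 in the parental library. Both libraries shared 235 of them, 108 had counts in RT-R only and 46 in parental only, and 485 had none. Of the 389 LINC symbols with any count, 27.8% were thus seen in RT-R only and 11.8% in parental only, against 9.57% and 4.31% of all 18391 gene symbols with any count. Among symbols with a larger count of 1 to 19 the shares were 36.4% and 15.6% for LINC symbols, against 30.1% and 13.7% for all symbols. The RT-R library was the deeper one, and symbols with few counts can be missed in either library by sampling alone. The median member had 50 RT-R and 42 parental counts, against 249 and 227 for the median measured gene. The larger of the 2 counts was 20 to 49 for 43 members, 50 or more but under 200 for 32, and 200 or more for 20. At the lower edge of the set, LINC01277 (20 RT-R counts, 1 parental), LINC01426 (20 and 5) and LINC00899 (20 and 15) were just inside. LINC00622 (19 RT-R counts, 8 parental), LINC00524 (19 and 3) and LINC01547 (18 and 14) were just outside.

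A call of higher or lower required that the RT-R level, after the libraries were scaled to each other, be at least 2-fold from the parental level and that the 95% counting interval of the ratio lie on one side of equal expression. Of the 95 members, 16 (16.8%) were higher and 10 (10.5%) were lower in RT-R cells. Among all 12644 measured genes, 7.16% were higher and 3.82% were lower. These shares differed with how many counts a gene had, and 43 of the 95 members had fewer than 50 in both libraries. With a larger count of 20 to 49, 10 of 43 members (23.3%) were higher and 7 (16.3%) lower, against 20.5% and 8.86% of all measured genes in that range. Between 50 and 200 counts, 5 of 32 members (15.6%) were higher and 2 (6.25%) lower, against 9.27% and 4.54%. With 200 or more, 1 of 20 (5%) was higher and 1 lower, against 3.14% and 2.34%. At 4-fold, 9 members (9.47%) were higher and 2 (2.11%) lower, against 2.4% and 0.546% of all measured genes. These 4-fold shares were not split by range of counts. At 20 counts in the RT-R library a higher call needed 7 or fewer parental counts, so smaller differences were not detectable as calls at that depth.

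**Figure D1:**
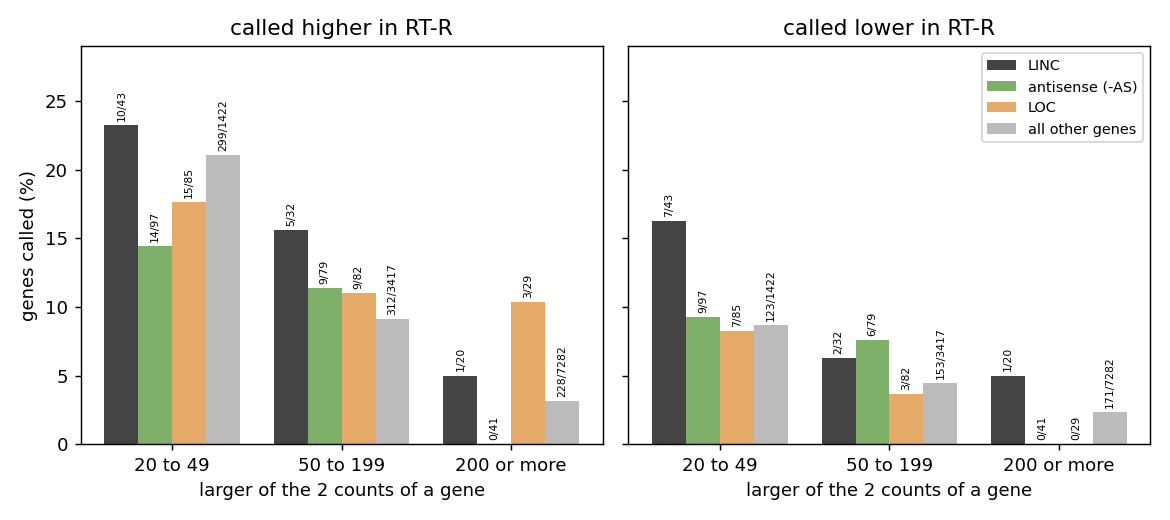
Share of genes called higher (left) and lower (right) in RT-R cells, in percent, within 3 ranges of the larger of a gene's 2 counts, for LINC members, antisense symbols ending in -AS, LOC symbols and all other measured genes. The fraction above each bar gives genes called over genes measured, and the bars fall with rising counts in most classes. In the lowest range 10 of 43 LINC members were higher and 7 were lower.

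Other classes of mostly noncoding symbols showed lower shares in total, but not in every range of counts. Of 217 antisense symbols, 23 (10.6%) were higher and 15 (6.91%) lower, with a median larger count of 59 against 64 for the LINC members. Of 196 LOC symbols, which are uncharacterised loci, 27 (13.8%) were higher and 10 (5.10%) lower. The 15 small nucleolar RNA host genes with an SNHG symbol, with a median larger count of 999, had 0 higher and 1 lower. Host genes with other symbols, such as ZFAS1 and GAS5, are not in this class and are given below. With 200 or more counts, 3 of 29 LOC symbols (10.3%) were higher and 1 of 12 SNHG symbols (8.33%) lower. In that range 1 of 20 LINC members (5%) was called in each direction. Between 50 and 200 counts 6 of 79 antisense symbols (7.59%) were lower, against 2 of 32 LINC members (6.25%). The differences between these classes were not tested. The median log2 ratio of RT-R over parental was 0.08 over the members and 0.0051 over all measured genes, and the median size of the log2 ratio regardless of sign was 0.51 against 0.34. Members were thus spread to both sides, with 52 above and 43 below a log2 ratio of 0. Their summed counts were 21088 in RT-R and 19599 in parental cells, a scaled ratio of 0.977 (0.958 to 0.996). Without LINC00152 and LINC00657, the members with the most counts, the ratio was 0.990 (0.963 to 1.02). Over all LINC symbols it was 0.992 (0.973 to 1.01), and both of these intervals held equal expression.

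**Figure D2:**
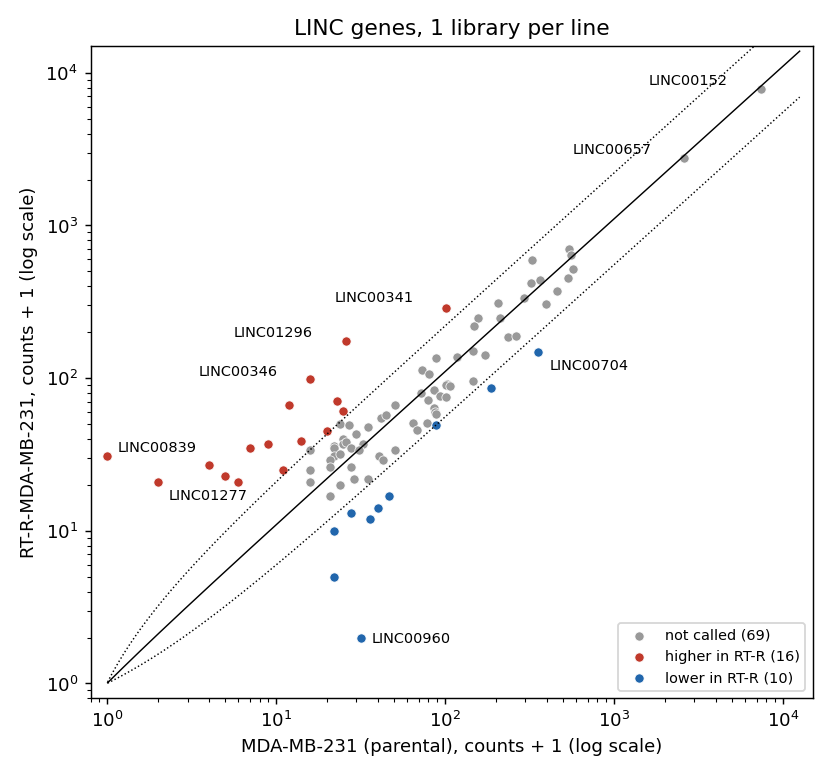
Counts of the 95 LINC members in the RT-R library (vertical axis) and the parental library (horizontal axis), each plus 1 on a log scale, coloured by call. The solid line marks equal scaled expression and the dotted lines 2-fold. The most abundant genes, LINC00152 and LINC00657, lie on the solid line, and the called genes sit mostly below 100 counts.

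The members with the most counts differed little between the lines. LINC00152, now named CYTOR, a cytoplasmic RNA studied for its role in growth and motility of several cancers, had 7879 RT-R and 7424 parental counts, a ratio of 0.964 (0.933 to 0.995). LINC00657, now NORAD, an RNA induced by DNA damage that binds PUMILIO proteins, had 2776 RT-R and 2609 parental counts, a ratio of 0.966 (0.916 to 1.02). Together these genes held 50.5% of all member counts in RT-R (49.8 to 51.2%) and 51.2% in parental cells (50.5 to 51.9%). Among the 10 members with the most counts 0 were called, although 7 of the 10 intervals excluded equal expression. LINC00472, described as a growth suppressor in breast cancer, was the farthest of them from equality, with 589 RT-R and 328 parental counts and a ratio of 1.63 (1.42 to 1.87). LINC00467 had 699 RT-R and 539 parental counts, 1.18-fold (1.05 to 1.32), and LINC00261, the neighbour of the endoderm factor gene FOXA2, had 422 and 323, 1.19-fold (1.02 to 1.38). LINC01004 had 451 RT-R and 532 parental counts and was 1.299-fold lower (1.14 to 1.48), and LINC00342 had 371 and 459, 1.36-fold lower (1.19 to 1.57). LINC01578, now CHASERR, which in mouse restrains its neighbour Chd2, had 643 RT-R and 560 parental counts and a ratio of 1.04 (0.929 to 1.17). LINC00674 had 437 and 367, a ratio of 1.08 (0.939 to 1.25).

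Several members are listed in the reference under another name. All 95 were found in the RefSeq table, 26 of them under a different current symbol. Of the 95, 86 are classed there as long noncoding RNA, 8 as protein-coding and 1 as a transcribed pseudogene. Of the 8 protein-coding entries, 6 were not called. LINC00493, now SMIM26, a mitochondrial small protein, had 521 RT-R and 571 parental counts, 1.21-fold lower (1.07 to 1.36). LINC00116, now MTLN, which encodes the inner-membrane microprotein mitoregulin, had 304 RT-R and 394 parental counts, 1.43-fold lower (1.23 to 1.66). LINC01420, now NBDY, whose product binds the mRNA decapping complex, had 185 and 235, 1.40-fold lower (1.15 to 1.71). LINC00998, now SMIM30, had 246 RT-R and 210 parental counts, a ratio of 1.06 (0.881 to 1.28), LINC00094, now BRD3OS, 332 and 293, a ratio of 1.03 (0.877 to 1.21), and LINC00672, now LASP1NB, 24 and 15, a ratio of 1.45 (0.732 to 2.98).

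Of the 18 renamed members that are not protein-coding entries, 3 were called higher and 1 lower, and these are described with the called members. The 10 given next are among those without a call. LINC00888, now the small nucleolar RNA host SNHG33, had 189 RT-R and 262 parental counts, 1.53-fold lower (1.26 to 1.85). LINC01481, now PRANCR, an RNA needed for renewal of epidermal progenitors, had 59 and 86, 1.61-fold lower (1.14 to 2.28). LINC00883, now DUBR, had 28 RT-R and 42 parental counts, 1.65-fold lower (1.0002 to 2.77). On the other side, LINC01604, now MINCR, an RNA induced by MYC, had 218 RT-R and 148 parental counts, a ratio of 1.34 (1.08 to 1.66). LINC00476, now ERCC6L2-AS1, had 35 and 21, a ratio of 1.51 (0.857 to 2.74), and LINC00638, now VESTAR, 28 and 20, a ratio of 1.27 (0.691 to 2.38). The intervals of these last 2 held equal expression, as did those of LINC01184 (SLC12A2-DT, 136 RT-R and 117 parental counts), LINC00936 (ATP2B1-AS1, 36 and 32), LINC00969 (MIR570HG, 25 and 27) and LINC00669 (MIR924HG, 19 and 23).

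The other 2 protein-coding entries were called, and the current symbol has a row of its own in the tables for both. LINC00341 had 289 RT-R and 101 parental counts, 2.598-fold higher (2.06 to 3.29). It is listed today within SYNE3, a nuclear envelope protein gene whose own row held 11 RT-R and 15 parental counts. LINC01279 had 44 RT-R and 19 parental counts, 2.10-fold higher (1.20 to 3.81), and is listed within CCDC80, a secreted matrix protein gene with 1738 RT-R and 1365 parental counts, a ratio of 1.16 (1.08 to 1.24). How the reads of such shared loci were divided between the rows is not given in the sources used here.

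Among the members called higher, LINC00839 was the only one of the 95 with counts in 1 library alone. It had 30 counts in RT-R cells and 0 in parental cells, 9.08-fold higher with the parental library put at 3 counts, the value set here for an observed 0. That value takes the 30 counts as exact, and the lower end of the exact 95% interval, which does not, was 6.94-fold. LINC01277 had 20 RT-R counts and 1 parental count, a ratio of 18.2 with an interval from 2.90 to 753. LINC00632, the host gene of the circular RNA CDR1-AS, had 26 RT-R and 3 parental counts, 7.87-fold higher (2.41 to 40.6). These genes were close to absent in parental cells, so the size of their ratios is poorly fixed.

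LINC01296 had 174 RT-R and 25 parental counts, 6.32-fold higher (4.14 to 10.0). It is now listed as DUXAP9, one of several near-identical homeobox pseudogene copies. LINC00346, now PRECSIT, described as a p53-regulated RNA that acts on STAT3 signalling in skin carcinoma, had 97 RT-R and 15 parental counts, 5.87-fold higher (3.39 to 10.9). LINC01139, known as LINK-A, a membrane-associated RNA reported to activate HIF1A in triple negative breast cancer, had 66 RT-R and 11 parental counts, 5.45-fold higher (2.86 to 11.4). All 3 genes had more than 10 counts in both libraries.

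LINC01589 had 34 RT-R and 6 parental counts, 5.15-fold higher (2.14 to 14.99). LINC00337, now ICMT-DT, a divergent transcript of the methyltransferase gene ICMT, had 22 and 4, 4.99-fold higher (1.70 to 19.9). LINC00470 had 36 and 8, 4.09-fold higher (1.87 to 10.2). Each of these had under 10 parental counts. LINC01426 had 20 RT-R and 5 parental counts, 3.63-fold higher (1.32 to 12.4). LINC00662 had 70 and 22, 2.89-fold higher (1.77 to 4.90), and LINC00957 had 60 and 24, 2.27-fold higher (1.39 to 3.81). LINC00941, which restrains differentiation in keratinocytes, had 38 RT-R and 13 parental counts, 2.65-fold higher (1.38 to 5.43). LINC01503, transcribed from a TP63-bound super-enhancer in squamous carcinoma, had 24 RT-R and 10 parental counts, 2.18-fold higher, and its interval of 1.004 to 5.11 barely excluded equality. LINC00909, now ZNF407-AS1, with 33 RT-R and 15 parental counts and a ratio of 1.998 (1.06 to 3.96), lay just under the 2-fold limit, as did LINC00842 with 49 and 23 and a ratio of 1.93 (1.16 to 3.33). Over the 69 members without a call the log2 ratio ran from -0.82 to 0.98, and the interval lay above equality for 11, below it for 19 and across it for 39.

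Among the members called lower, LINC00960 had 1 RT-R count and 31 parental counts, 34.1-fold lower (5.69 to 1391). LINC01561 had 4 RT-R and 21 parental counts, 5.78-fold lower (1.95 to 23.2). LINC00704, now MANCR, a mitosis-associated RNA described in triple negative breast cancer and linked to genome stability, had 147 RT-R and 357 parental counts, 2.67-fold lower (2.201 to 3.26). It was the lower gene with the most counts, and its interval was the narrowest among the 10. LINC01588 had 85 RT-R and 186 parental counts, 2.41-fold lower (1.85 to 3.15). LINC00106 had 11 and 35, 3.50-fold lower (1.74 to 7.65), and LINC00880 had 16 and 46, 3.17-fold lower (1.76 to 5.99).

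The remaining lower members included a pair of neighbours on chromosome 17. LINC00511, reported to promote growth of breast cancer cells, had 13 RT-R and 39 parental counts, 3.30-fold lower (1.73 to 6.75). LINC00673, reported to bind the phosphatase PTPN11 in pancreatic cells, had 48 RT-R and 88 parental counts, 2.02-fold lower (1.40 to 2.93). Both lie between SOX9, with 412 RT-R and 576 parental counts and a log2 ratio of -0.62, and SLC39A11, with 535 and 299 and a log2 ratio of 0.70. LINC00312, a gene first described in nasopharyngeal carcinoma, had 12 RT-R and 27 parental counts, 2.48-fold lower (1.21 to 5.37), and LINC00260 had 9 and 21, 2.57-fold lower (1.13 to 6.37).

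**Figure D3:**
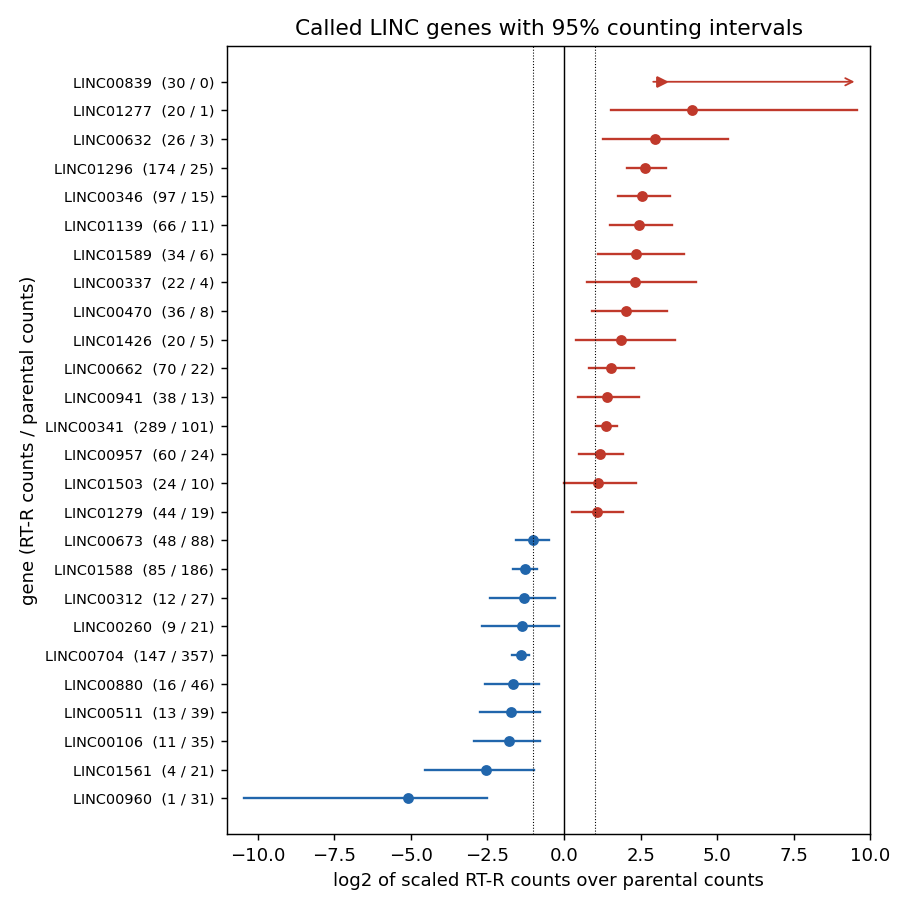
Ratio of scaled RT-R counts to parental counts on a log2 scale for the 16 higher and 10 lower LINC members, with exact 95% intervals for counting error as bars and the counts of RT-R and parental cells in brackets. The arrow marks LINC00839, which had 0 parental counts and is drawn at 9.08-fold, its ratio with 3 parental counts. The lower end of its exact interval is 6.94-fold. LINC00960 and LINC01277, each with 1 count in a library, have the widest closed intervals.

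To show what lies upstream of the genes that differed most, the promoter windows of the 3 higher and 2 lower members with the interval bounds farthest from equality are given below, among those with a RefSeq window. Each runs from 250 bases before to 50 bases after the annotated start, on assembly GRCh38.p14, 5' to 3' on the gene's strand. Capitals mark the TATA box letters TATAAA, the CCAAT box, the GC box letters GGGCGG, the AP-1 motif TGANTCA and, as part of the cyclic AMP response element, TGACGT, on either strand.
LINC00839 (chr10:42475241-42475540, plus strand): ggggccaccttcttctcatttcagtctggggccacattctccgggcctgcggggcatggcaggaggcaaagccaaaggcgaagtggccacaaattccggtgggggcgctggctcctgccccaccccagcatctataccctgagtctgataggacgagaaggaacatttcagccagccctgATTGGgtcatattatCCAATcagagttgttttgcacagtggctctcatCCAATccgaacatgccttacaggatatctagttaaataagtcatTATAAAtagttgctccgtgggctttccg
LINC00346 (chr13:110870259-110870558, minus strand): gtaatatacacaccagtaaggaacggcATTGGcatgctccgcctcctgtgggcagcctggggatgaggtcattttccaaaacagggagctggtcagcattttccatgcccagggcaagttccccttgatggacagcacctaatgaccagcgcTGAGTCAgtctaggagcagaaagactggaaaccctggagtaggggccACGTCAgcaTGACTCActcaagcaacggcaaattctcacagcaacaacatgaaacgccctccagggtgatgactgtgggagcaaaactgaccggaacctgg
LINC01277 (chr6:143037533-143037832, minus strand): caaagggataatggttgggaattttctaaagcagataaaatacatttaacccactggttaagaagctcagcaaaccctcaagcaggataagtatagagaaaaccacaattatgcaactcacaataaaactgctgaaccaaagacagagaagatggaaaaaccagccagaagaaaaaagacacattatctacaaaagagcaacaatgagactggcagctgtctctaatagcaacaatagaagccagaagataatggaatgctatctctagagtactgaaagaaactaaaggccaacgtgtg
LINC00960 (chr3:75672031-75672330, plus strand): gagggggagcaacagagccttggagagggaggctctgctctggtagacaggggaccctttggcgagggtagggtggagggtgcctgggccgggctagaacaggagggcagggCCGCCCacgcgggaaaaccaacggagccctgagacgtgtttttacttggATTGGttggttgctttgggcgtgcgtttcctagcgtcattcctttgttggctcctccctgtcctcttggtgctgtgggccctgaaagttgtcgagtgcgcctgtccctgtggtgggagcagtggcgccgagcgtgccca
LINC00704 (chr10:4678021-4678320, minus strand): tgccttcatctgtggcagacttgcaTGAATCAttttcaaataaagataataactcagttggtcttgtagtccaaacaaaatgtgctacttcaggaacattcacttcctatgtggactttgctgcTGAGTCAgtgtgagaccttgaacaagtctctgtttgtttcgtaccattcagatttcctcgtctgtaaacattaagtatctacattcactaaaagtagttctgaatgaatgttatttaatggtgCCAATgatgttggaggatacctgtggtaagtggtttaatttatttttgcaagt

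The LINC00839 window held CCAAT 3 times, in the 70 bases before the start, and TATAAA once, after the start. The LINC00346 window held TGANTCA 2 times and TGACGT once within the 98 bases before the start, and CCAAT once. The LINC01277 window held none of the 5 motifs, and its GC content was 38% with 1 CG pair. LINC00960 held GGGCGG and CCAAT once each, at 62.7% GC. LINC00704 held TGANTCA 2 times and CCAAT once, at 36.7% GC. TGANTCA was therefore present in a higher and in a lower gene.

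RefSeq windows were found for 77 members. They follow the RefSeq entry, so those of the higher members LINC00341 and LINC01279 belong to the SYNE3 and CCDC80 entries. TGANTCA was present in 8 of the 77 (10.4%), against 7.76% of 27305 promoter windows, in 1 of 12 higher members and in 1 of 8 lower members. TGACGT was present in 6.49% of member windows against 8.32% of all, TATAAA in 6.49% against 11.95%, CCAAT in 45.5% against 35.7%, and GGGCGG in 46.8% against 44.6%. The median number of CG pairs was 8 in higher, 4 in lower and 19 in uncalled members, against 14 over all windows. The median GC content was 53.3% in higher, 52.5% in lower and 61% in uncalled members, against 58.3% over all windows. A match of letters is a description and not a binding site.

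The position of the members on the chromosomes was compared next, because expression differed over whole chromosomes between the lines. On chromosome 3, 6 of 7 members had a log2 ratio below 0 and 3 were called lower (LINC00960, LINC00880 and LINC00312). The remaining member, LINC01279, was called higher. The median of the members was -0.71, against -0.19 for the 704 other measured genes of that chromosome, of which 4.69% were called higher and 4.83% lower. On the X chromosome, 5 of 7 members lay below 0, with a median of -0.48 against -0.77 for 417 other genes. LINC00632 was called higher and LINC00106 lower there, while 4.56% of the other X genes were called higher and 29.02% lower. LINC01278 had 79 RT-R and 71 parental counts, a log2 ratio of 0.01, beside a median of -1.03 for its neighbours. On chromosome 13, where the other genes had a median of 0.58 and 24.3% of them were called higher, LINC00346 was higher and LINC00562 had 33 RT-R and 30 parental counts, a log2 ratio of -0.0017. On chromosome 7, with a median of -0.33 over 593 other genes and 3.37% of them called higher, 4 of 8 members lay below 0, and LINC00957 was called higher beside neighbours with a median of -0.69. On chromosome 2, 5 of 6 members lay below 0, LINC01116 among them with 95 RT-R and 145 parental counts, 1.68-fold lower (1.29 to 2.201), while the other genes had a median of 0.11.

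**Figure D4:**
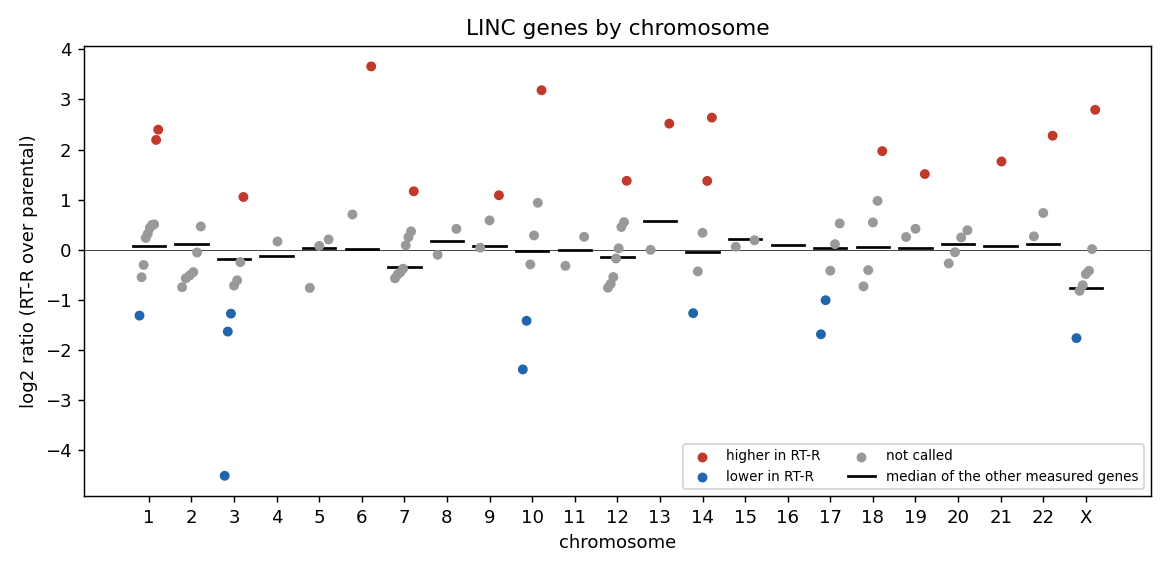
Log2 ratio of RT-R over parental for each LINC member by chromosome, coloured by call, with a bar for the median of the other measured genes of that chromosome. LINC00839 is drawn at its ratio with 3 parental counts. Chromosome 16 had no member, 6 of 7 members on chromosome 3 lay below 0, and the X chromosome bar lies at -0.77.

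Each member was also set beside up to 10 neighbouring measured genes, 5 on each side, that were not LINC members. Over the 95 members the log2 ratio of a member and the median of its neighbours had a Pearson r of 0.38 and a Spearman rho of 0.37. This is a correlation across genes of the same libraries, and members on 1 chromosome share neighbours, so the points are not independent. The median of the neighbours was 0.18 for higher members, with a range of -0.69 to 0.80, and -0.07 for lower members, with a range of -0.84 to 0.52. For uncalled members it was -0.0064. Of the 31 genes nearest to a higher member, 6 were called higher and 1 lower. The 31, and the neighbours of LINC01279, include CCDC80, within which that member is listed. Of the 20 nearest to a lower member, with SOX9 and SLC39A11 counted for both LINC00511 and LINC00673, 4 were called lower and 1 higher. Among all measured genes 7.16% were called higher and 3.82% lower. The 6 include DUXAP10, which has a transcript that matches the end of LINC01296. The 4 include ATP2B4, which overlaps LINC00260. Whether reads were shared in these cases was not tested.

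**Figure D5:**
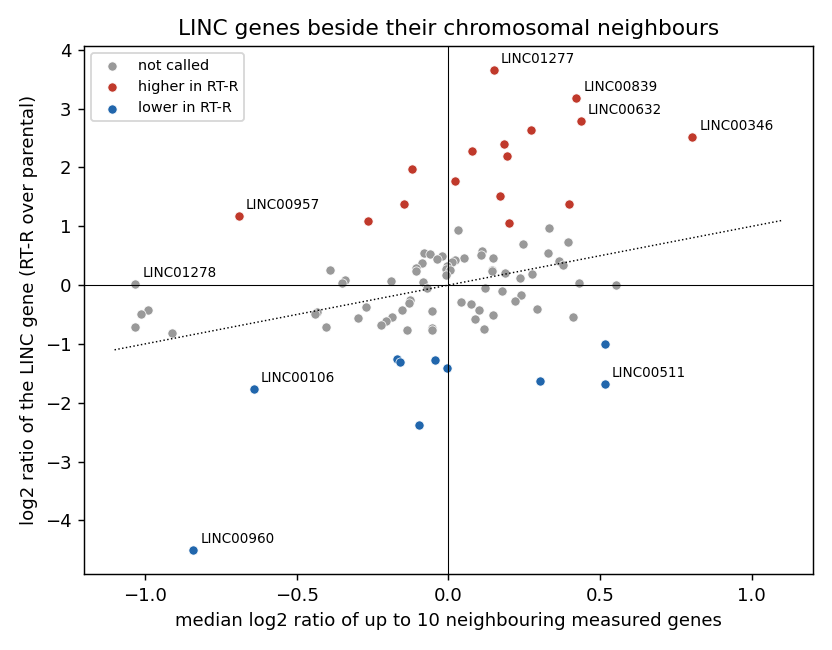
Log2 ratio of each LINC member (vertical axis) against the median log2 ratio of up to 10 neighbouring measured genes (horizontal axis), with a dotted line of equality. LINC00839 is drawn at its ratio with 3 parental counts. Higher and lower members lie 2-fold or more from equality by the rule of the call. LINC00957 and LINC00511 are among those on the opposite side of 0 from the median of their neighbours.

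Some nearest genes moved the same way as the member. LINC01139 lies before CHRM3, a muscarinic receptor gene, which had 63 RT-R and 12 parental counts, 4.77-fold higher (2.55 to 9.71), while RYR2 on its other side had 17 and 31, 2.01-fold lower. LINC01426 lies between CLIC6, with 210 RT-R and 62 parental counts, 3.08-fold higher (2.31 to 4.15), and RUNX1, with 371 and 304 and a ratio of 1.11 (0.9496 to 1.29). LINC01503 follows IER5L, which had 1041 RT-R and 352 parental counts, 2.69-fold higher (2.38 to 3.04). LINC01589 follows the fibulin gene FBLN1, with 79 and 29 counts, 2.47-fold higher (1.60 to 3.93), and LINC00346 is followed by ANKRD10, with 788 and 341, 2.10-fold higher (1.85 to 2.39). LINC01561 follows PPAPDC1A, a phosphatase gene with 90 RT-R and 183 parental counts, 2.24-fold lower (1.73 to 2.92). LINC00960 precedes the zinc finger gene ZNF717, which had 20 RT-R and 40 parental counts, 2.203-fold lower (1.26 to 3.98). LINC00260 overlaps the calcium pump gene ATP2B4, which had 238 RT-R and 553 parental counts, 2.56-fold lower (2.19 to 2.99), close to the 2.57-fold of LINC00260 itself. LINC00106 precedes ASMTL-AS1, with 13 RT-R and 27 parental counts, 2.29-fold lower (1.14 to 4.83), and follows SLC25A6, with 3935 and 7090, 1.98-fold lower (1.91 to 2.06) and just short of a call.

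Other called members lay beside genes that were not called or moved the other way. LINC00704 lies between KLF6, with 2805 RT-R and 2096 parental counts, and AKR1C1, which had 29 and 4 counts and was 6.58-fold higher (2.31 to 25.8) where LINC00704 was lower. Its neighbour among the members, LINC00706, had 31 RT-R and 23 parental counts, a ratio of 1.22 (0.691 to 2.198). LINC00337 starts beside ICMT, which had 798 RT-R and 738 parental counts and a ratio of 0.982 (0.887 to 1.09). LINC00957 lies between POLR2J4, 1.69-fold lower, and DBNL, 1.41-fold lower. LINC01277 lies between HIVEP2 (ratio 1.42) and AIG1 (ratio 1.60), neither of which was called. LINC00839 lies between LOC441666 (ratio 1.96) and ZNF37BP (ratio 1.37), also not called. LINC00632 precedes SPANXB1, with 17946 RT-R and 12053 parental counts and a ratio of 1.35 (1.32 to 1.38), not called. LINC00662 lies between ZNF254, with 33 RT-R and 28 parental counts, and UQCRFS1, with 879 and 983. LINC00941 lies between CAPRIN2, with 280 and 174 counts and a ratio of 1.46, and DDX11, with 186 and 229 and a ratio of 0.737. LINC00470 lies between YES1, with 306 RT-R and 190 parental counts and a ratio of 1.46, and METTL4, with 77 and 82 and a ratio of 0.853. LINC00341 lies between CLMN, with 210 and 137 counts, and SNHG10, with 54 and 53. The genes on both sides of LINC00662, LINC00941, LINC00470 and LINC00341 stayed without a call. LINC00312 precedes the oxytocin receptor gene OXTR, with 35 RT-R and 51 parental counts, 1.61-fold lower (1.02 to 2.54) and not called. LINC00880 lies between PA2G4P4, with 1100 RT-R and 1397 parental counts and a ratio of 0.715, and CCNL1, with 416 and 244 and a ratio of 1.55. LINC01588 lies between ARF6, with 1735 and 1876 counts, and VCPKMT, with 48 and 67, both with log2 ratios below 0 (-0.25 and -0.61).

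Some members cannot be told apart from other loci with certainty. The last 300 bases of the transcripts were available for 88 members, and 29 of them matched a transcript of a gene at another locus at 95% identity or more over 75 bases or more. Among the called members 8 did so. LINC01296 matched DUXAP8 and DUXAP10, of which DUXAP10 is its nearest measured gene and had 39 RT-R counts and 1 parental count. LINC00957 matched RASA4 and its copies. LINC00470, LINC00941, LINC01503 and LINC00511 matched 34, 69, 28 and 7 other genes. LINC00152 matched MIR4435-2HG, its known copy on the same chromosome. Besides LINC01279, listed within CCDC80, 11 members overlapped another measured gene by RefSeq coordinates, among them LINC00312, which overlaps LMCD1 (89 RT-R and 115 parental counts). Without a statement on strand, reads of overlapping genes cannot be told apart.

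Of a list of 25 LINC genes chosen for reported roles, 17 were members and 8 lay under the minimum in both libraries. LINC00473, a cyclic AMP responsive RNA, had 0 RT-R and 2 parental counts, LINC01133 had 3 and 0, LINC00520 3 and 6, LINC00460 6 and 2, LINC00961 2 and 1 and LINC00958 3 and 0. LINC00665 had 9 RT-R counts and 1 parental count, and LINC00707 had 15 and 3. No call is made below 20 counts. LINC01234, a listed member, had 83 RT-R and 85 parental counts, a ratio of 0.887 (0.647 to 1.21).

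Noncoding RNAs with names of their own were compared for context. Of 52 listed, 44 were present under the listed symbol. CYTOR and NORAD were not, and are described above as LINC00152 and LINC00657. Of the 44, 20 had 20 or more counts, of which 2 were higher, 2 lower and 16 not called. The median log2 ratio of the 20 was 0.15. The share of 2 in 20 stood beside 7.16% higher and 3.82% lower of all measured genes. ZFAS1 and GAS5, both host genes of small nucleolar RNAs, were higher. ZFAS1 had 6772 RT-R and 1920 parental counts, 3.20-fold (3.04 to 3.37), and GAS5 had 2124 and 880, 2.19-fold (2.02 to 2.37). UCA1, a cancer-associated RNA first found in bladder carcinoma, had 86 RT-R and 291 parental counts, 3.73-fold lower (2.92 to 4.80), and TERC, the RNA template of telomerase, had 86 and 259, 3.32-fold lower (2.59 to 4.28). The nuclear RNA MALAT1 had 64377 RT-R and 36101 parental counts, a ratio of 1.62 (1.598 to 1.64), and NEAT1, the scaffold of paraspeckles, had 5474 and 2805, a ratio of 1.77 (1.69 to 1.86), both short of the 2-fold limit. EPB41L4A-AS1 had 990 and 485, a ratio of 1.85 (1.66 to 2.07).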

How the data were processed

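Libraries were made from 500 ng of total RNA with a Lexogen QuantSeq kit, per the labels' protocols. The deposited values are raw counts, whole numbers per gene symbol that the authors did not normalize. The submitters' processing notes name the hg19 build, Bowtie2, bedtools and bcl2fastq 2.20.0.422. The annotation, strand setting and treatment of multiply mapped reads are not given in the sources.

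Repeated symbols were summed (25737 rows, 24462 symbols, none unnamed). Libraries were scaled by TMM (trimmed mean of M-values; edgeR 4.0.16, R 4.3.3) over 12644 genes with 20 or more counts in a library. The RT-R library was 1.10 times the parental one on that scale and 1.08 times by totals. Log2 ratios used scaled counts plus 0.5. Fold ratios and their exact conditional (Clopper-Pearson) 95% intervals used the counts (scipy 1.17.1). The calculation was checked on simulated libraries. No test across samples exists with 1 library per line.

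Names, gene order and promoters came from RefSeq (GRCh38.p14), by symbol or unambiguous synonym, and transcript ends from GENCODE 29, compared with blastn 2.17.0. Since the counts rest on hg19, coordinates are printed for promoter windows alone. Named are the 15 highest and all 10 lower called members by the interval bound nearest to 1, the 10 with most counts, renamed members, a list with reported roles, those at the minimum and the nearest genes of called members, some of which are not reported here. LINC01503, LINC01278, LINC00562 and LINC00706 were named after their values were seen. Members and lists were chosen with earlier results of these data known. Alternatives covered scaling, pseudocount, minimum, fold, interval, repeated rows, symbol suffixes and neighbour number.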

Additional observations from a re-analysis of the deposited data

How the results depend on the processing

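Scaling by totals, by the median of ratios, by the upper quartile or by the trimmed mean over all symbols (the last added after the data were seen) shifted all log2 ratios by nearly the same small amount, so calls could change only near the 2-fold limit or where an interval ended close to 1. LINC00673 was no longer called by totals (log2 ratio -0.98) or by the upper quartile (-0.98), LINC00909 became higher in both (1.0007 and 1.005), and LINC01503 was lost with all symbols (1.07). The number of members changed with the minimum, and shares over all genes are not given here for the other minima or for 1.5-fold. At a minimum of 10 counts 25 of 135 LINC genes were higher and 12 lower. Of the 135, 4 were in 1 library only, and the median log2 ratio was 0.19. At 50 counts 6 of 52 were higher, 3 lower and 0 in 1 library only, and the median turned to -0.077. With no filter 31 of 389 were higher and 13 lower, 154 were in 1 library only and the median was 0.45. Of the 95 members a threshold of 4-fold left 9 (9.47%) higher and 2 (2.11%) lower, against 2.4% and 0.546% of all measured genes. A threshold of 1.5-fold gave 20 higher and 19 lower. Of the other named noncoding RNAs, 5 of 30 were higher and 2 lower at a minimum of 10. With no filter 6 of 38 were higher and 2 lower. At 1.5-fold 5 of 20 were higher and 3 lower, and at 4-fold 0 were higher and 0 lower. Without the interval rule, with the largest row of a repeated symbol or with suffixed symbols the counts stayed within 1.5 times. With 15 neighbours on each side the correlation was 0.32. No paired analysis was possible because each line has 1 library, and for the same reason no library could be left out. Members near 20 counts carry wide intervals, and differences between cultures cannot be seen.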
